A study of Mus musculus with 46 samples.

Results

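Expression of 10 genes of the acute phase and of iron handling was examined by their symbols in RNA-seq tables of mouse brain myeloid cells and tissue: *Saa3*, *Lcn2*, *Hp*, *Cp*, *Fth1*, *Ftl1*, *Slc40a1*, *Slc11a1*, *Tfrc* and *Hmox1*. All 10 of these genes are listed among the 15285 genes of the table of cells sorted after lipopolysaccharide (LPS), and 9 of them among the 15695 genes of the subventricular zone (SVZ) table and the 19930 genes of the 28 day table, where *Saa3* is not analysed here. The study fed male C57BL/6 mice of about 2 months the CSF1 receptor inhibitor PLX3397, on whose target microglia depend for survival, at 600 ppm in chow, and followed the cells that refill the brain once the drug is withdrawn. For the LPS experiment, CD11b+CD45int cells were sorted from brain hemispheres of control mice without (0 hr, n = 3), 6 hr after (n = 5) or 24 hr after (n = 4) an injection of 0.33 mg/kg LPS, a bacterial cell wall component that triggers innate immune responses. The same times (n = 4 each) were sampled in mice with white matter (WM) repopulation, which had received PLX3397 for 14 days and control chow for 28 days, and whose cells the labels call AltRepop. GLOBAL repopulation (n = 3, RegularRepop in the labels) followed 7 days of PLX3397 and 28 days of control chow, and was sampled with its own controls (n = 4) and without LPS. SVZ tissue came from control mice, mice at the end of 14 days of PLX3397 (ElimSVZ in the labels) and mice 5 days into recovery (n = 5 each). In WM and GLOBAL repopulating cells and in SVZ recovery, the earlier drug and the repopulation after it go together and cannot be told apart, and neither can the drug and the depletion in the SVZ at the end of treatment.

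The acute phase response is the systemic reaction to infection, in which liver and immune cells release proteins such as serum amyloid A, lipocalin 2, haptoglobin and ceruloplasmin. Part of this response withholds iron from microbes: macrophages store iron in ferritin, lower the iron exporter ferroportin and release iron from heme with heme oxygenase. Microglia are the macrophages of the brain parenchyma and take part in iron storage there. Ferritin, ferroportin and transferrin receptor mRNAs are known to carry iron-responsive elements, hairpins that bind iron regulatory proteins when iron is scarce, which blocks translation from a hairpin in the 5′ UTR and stabilizes an mRNA with hairpins in its 3′ UTR.

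The hairpins of 4 of these genes are shown because they divide the iron genes into those with the element before and those with it after the coding sequence. They were searched in the GENCODE M21 protein coding transcripts (GRCm38, the build of mm10 that the submitters' processing notes name) as an unpaired C, 5 bases, the loop CAGTGN and 5 bases that pair with the first 5, with G-T pairs allowed. Each line is read 5′ to 3′ on the mRNA, with the hairpin in capitals and 5 bases on either side.
Fth1: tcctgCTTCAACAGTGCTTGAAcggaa
Ftl1: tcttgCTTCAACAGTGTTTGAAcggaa
Slc40a1: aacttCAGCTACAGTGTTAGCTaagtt
Tfrc, the first of its hairpins: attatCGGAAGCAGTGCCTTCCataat
The *Fth1* site lies at chr19:9982733-9982759 on the plus strand, in the 5′ UTR and in exon 1 of 4. The *Ftl1* site lies at chr7:45459780-45459806 on the minus strand, in the 5′ UTR and exon 1 of 4. The *Slc40a1* site lies at chr1:45925466-45925492 on the minus strand, in the 5′ UTR and exon 1 of 8. The *Tfrc* site lies at chr16:32631220-32631246 on the plus strand, in the 3′ UTR and exon 19 of 19, where this search found 4 such hairpins in all. Of 21877 protein coding genes, 1.34% held a match in any transcript, against 4 of the 10 genes here. No match in the other members says only that these letters were not found in their transcripts.

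All 10 microglial markers set for the check of cell type were detected in every sorted group, with summed levels of 21088 to 24508 FPKM in control microglia at 0 hr, 7104 to 9450.2 at 6 hr and 11050.2 to 14119.6 at 24 hr, and close ranges in WM repopulating cells (19637 to 23350.1, 7908 to 9366 and 10540.5 to 14019.5 FPKM). The sorted cells also held markers of other blood cells. The summed level of 14 neutrophil markers (without *Lcn2*) was 1854 to 9173 FPKM at 0 hr, 960.1 to 5955 at 6 hr and 6522 to 15535 at 24 hr in control microglia, and 2961 to 11251, 459 to 10390.2 and 3228 to 7306 FPKM in WM repopulating cells. That of 10 monocyte markers was 131 to 365, 1231 to 2443 and 449.6 to 629 FPKM in control and 151 to 439, 1233 to 3401 and 165 to 697 FPKM in WM libraries. Of the endothelial markers, 6 of 9 are listed, with sums of 34.4 to 43.2, 101 to 199 and 23.3 to 50.0 FPKM in control and 36.2 to 38.7, 107 to 165 and 46 to 63.5 FPKM in WM libraries at 0, 6 and 24 hr. The higher sum at 6 hr came from *Slc2a1*, at 25.3 to 29.7 FPKM at 0 hr and 90.3 to 191 at 6 hr in control libraries, whereas *Pecam1* was at 7.83 to 12.7 and 6.02 to 13.2 FPKM. The 9 markers of border-associated macrophages summed to 48.2 to 128, 56.1 to 95.3 and 55.7 to 78.3 FPKM in control and 35.5 to 55.7, 52.5 to 87.3 and 21.8 to 43.7 FPKM in WM libraries, where the 24 hr sums lay below those of control. The 6 markers of the choroid plexus summed to 76.5 to 222, 99.9 to 1372 and 36.4 to 55.9 FPKM in control and 283 to 741, 162 to 611 and 12.2 to 32.9 FPKM in WM libraries, which lay above control at 0 hr and below it at 24 hr. The part that these other cells, or the lower microglial sums after LPS, had in the results below was not tested. In sorted cells and in tissue, a change in the number of cells of a type and a change in the RNA of each cell cannot be told apart. Each value is in FPKM, fragments scaled to gene length and to the fragments of the library, and the depth of the libraries differed at most 1.98-fold within the LPS table, 1.89-fold in the SVZ table and 1.54-fold in the 28 day table, as read from the steps between low values. Log2 fold changes below are differences in log2(FPKM + 1) with adjusted p-values from limma over all tested genes of a table, a scale that understates changes of low genes. Whether the animals of a group shared a cage or a day is not given in the sources used here, so p-values measure the spread between these libraries.

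Between 0 and 6 hr after LPS, 8 of the 10 genes changed in control microglia (of all 12684 genes tested, 42.5% were called), with *Saa3*, *Lcn2*, *Hp*, *Cp*, *Fth1*, *Tfrc* and *Hmox1* higher and *Slc40a1* lower. *Ftl1* and *Slc11a1* did not pass the test. The same 8 genes changed in the same directions in WM repopulating cells (38.8% of all genes called).

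**Figure D1:**
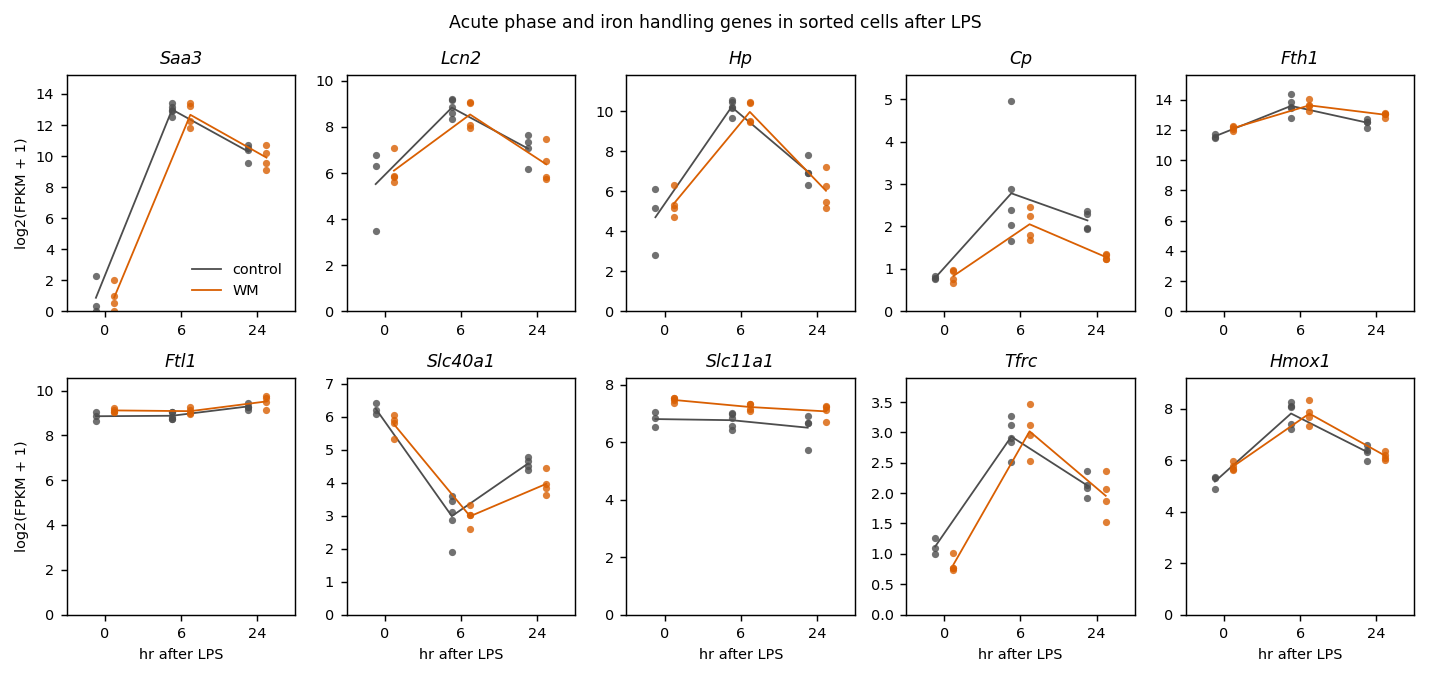
Log2(FPKM + 1) of each gene (vertical axis, starting at 0) at 0, 6 and 24 hr after LPS, with a point per library in gray for control microglia and orange for WM repopulating cells, and lines through the group means. *Slc40a1* is lowest at 6 hr, *Ftl1* and *Slc11a1* stay near their 0 hr level at 6 hr, and the other 7 genes peak at 6 hr.

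*Saa3* (Entrez 20210, chr7:46711998-46719615) encodes serum amyloid A 3, the member of this family that is made in macrophages and other cells outside the liver. In control microglia without LPS, its level was 0.28, 0 and 3.81 FPKM, which the steps between low values give as 1, 0 and 13 reads. At 6 hr it was 7845, 9196, 5923, 11196 and 7643 FPKM in the 5 libraries, and at 24 hr 1663, 1342, 766 and 1450.3 FPKM. The 3 groups did not overlap, and the gene went from rank 8527 to 14086 among the genes of a library to rank 4 to 7 at 6 hr and 29 to 67 at 24 hr. The rise was called at 6 hr (log2 fold change 12.12, SE 0.47, adjusted p = 5.33e-15) and at 24 hr (log2 fold change 9.42, SE 0.49, adjusted p = 3.37e-12), and the drop from 6 to 24 hr passed the test as well (log2 fold change -2.70, SE 0.43, adjusted p = 6.02e-05). WM repopulating cells had 1.02, 2.98, 0.484 and 0 FPKM at 0 hr (4, 10, 2 and 0 reads), 9576, 10775, 3548 and 4797 FPKM at 6 hr and 741, 1694, 1189 and 560.1 FPKM at 24 hr. Their 3 times did not overlap either, with log2 fold changes of 11.77 at 6 hr and 9.01 at 24 hr (adjusted p = 5.04e-15 and 1.54e-12). The family members *Saa1* and *Saa2*, which the liver secretes, reached 8.32 ± 3.87 and 3.62 ± 2.36 FPKM in control microglia at 6 hr and were listed at 0 in the 3 control libraries at 0 hr. Reads that these near-identical genes share cannot be assigned with certainty.

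*Lcn2* (Entrez 16819, chr2:32384637-32387739) encodes lipocalin 2, which binds bacterial siderophores and so keeps iron from microbes, and *Hp* (Entrez 15439, chr8:109575128-109579172) encodes haptoglobin, which binds free hemoglobin. *Lcn2* had 78.3, 10.2 and 108 FPKM in control microglia at 0 hr, 460.1, 599, 322, 574 and 392 at 6 hr and 133, 202, 162 and 71 at 24 hr. All 6 hr libraries were above all others, whereas the ranges at 0 and 24 hr overlapped. The rise at 6 hr passed the test (log2 fold change 3.32, SE 0.54, adjusted p = 2.40e-05), and that at 24 hr missed the threshold (log2 fold change 1.54, SE 0.56, adjusted p = 0.0516) but passed without replicate 1 or 3 of the 0 hr or replicate 4 of the 24 hr controls (adjusted p = 0.0343, 0.0147 and 0.0311). Leaving out replicate 2 of the 0 hr controls, the lowest with 10.2 FPKM, went the other way. The 24 hr difference was then smaller and did not pass. In WM repopulating cells, *Lcn2* was at 58.3, 56.2, 136 and 47.5 FPKM at 0 hr, 529, 537, 247 and 274 at 6 hr and 55.2, 175, 89.9 and 52.6 at 24 hr, with the 6 hr libraries again apart (log2 fold change 2.44, SE 0.52, adjusted p = 6.09e-04 at 6 hr). *Hp* moved further than *Lcn2*: control libraries had 69.1, 6.15 and 34.6 FPKM at 0 hr, 1402, 1152, 817, 1531 and 1201 at 6 hr and 121, 225, 119 and 79.5 at 24 hr, without overlap (log2 fold change 5.51, SE 0.53, adjusted p = 1.62e-08 at 6 hr). At 24 hr *Hp* was still higher than at 0 hr in control microglia (log2 fold change 2.29, SE 0.55, adjusted p = 0.0043), a call that was lost without replicate 2 of the 0 hr controls (log2 fold change 1.35, adjusted p = 0.0619). WM libraries had 34.5, 39.4, 79.4 and 24.9, then 1393, 1411, 699.8 and 746, then 43.8, 146, 75.7 and 35.4 FPKM, which overlap between 0 and 24 hr (log2 fold change 0.66, SE 0.51, adjusted p = 0.409).

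Neutrophils store lipocalin 2 and haptoglobin in their granules, so their markers stand beside these values. At 0 hr in control microglia, the library with the lowest neutrophil marker sum, 1854 FPKM, was also the lowest in *Lcn2* and *Hp*. At 6 hr the marker sums did not lie above those at 0 hr, and the *Lcn2* level per 1000 FPKM of neutrophil markers was 101 to 409 in control microglia at 6 hr, against 5.51 to 18.8 at 0 hr and 10.3 to 20.5 at 24 hr. For *Hp*, the same ratio was 194 to 1251 at 6 hr, 3.32 to 7.54 at 0 hr and 10.4 to 18.6 at 24 hr. The 6 hr ratios did not overlap with those of the other times. In WM repopulating cells at 6 hr, the neutrophil marker sums were 10390.2, 892, 727 and 459 FPKM in the 4 libraries. Their *Lcn2* levels, in the same order, were 529, 537, 247 and 274 FPKM. In WM repopulating cells, the *Lcn2* ratio was 12.1 to 16.1 at 0 hr, 50.9 to 602 at 6 hr and 15.4 to 24 at 24 hr, and the *Hp* ratio 7.06 to 9.58, 134 to 1625 and 11 to 19.98. Of single neutrophil markers, the abundant *S100a8* was at 1009.8 to 4733 FPKM at 0 hr and 618 to 3356 at 6 hr in control and 1473 to 5437 and 282 to 5561 FPKM in WM libraries, and *Ly6g* at 6.98 to 11.2 and 0 to 3.09 FPKM in control and 3.8 to 17.1 and 0 to 0.316 FPKM in WM libraries. *Ly6g* was at 0 in 3 of 5 control and 3 of 4 WM libraries at 6 hr. By contrast, *Wfdc21* was at 10.6 to 48.2 FPKM at 0 hr and 26.9 to 123 at 6 hr in control libraries. In WM libraries it was at 19.9 to 85.7 and 11.4 to 75.2 FPKM. Of the 15 neutrophil markers tested, with *Lcn2* counted among them, 1 was called higher and 2 lower at 6 hr in control libraries. In WM libraries these counts were 1 and 7. Of the 10 monocyte markers, 6 were called higher and 0 lower at 6 hr in control and 6 and 0 in WM libraries. *Plac8*, at 35.5 to 110.1 FPKM at 0 hr and 581 to 1415 at 6 hr in control libraries, made up much of their sum, and the part of monocytes and neutrophils in these changes was not tested.

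**Figure D2:**
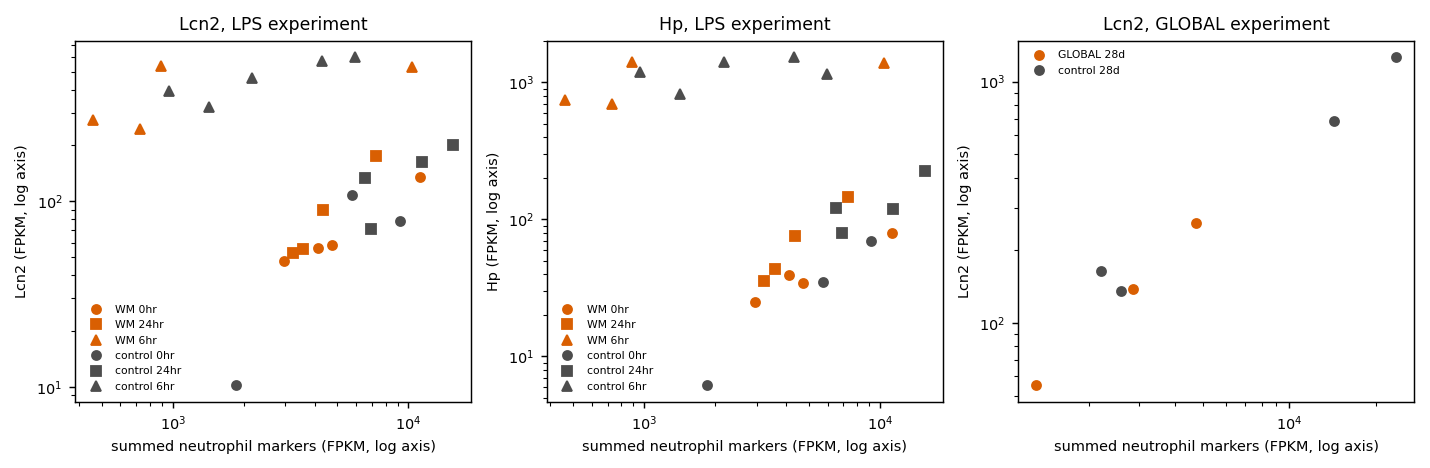
Level of *Lcn2* and *Hp* (vertical log axis, FPKM) against the summed level of the neutrophil markers (horizontal log axis, FPKM), with a point per library, gray for control and orange for WM or GLOBAL cells, and triangles for 6 hr. In the LPS experiment the 6 hr libraries lie above those of the other times, and in the GLOBAL experiment *Lcn2* spans 135 to 1264 FPKM in control libraries, highest where the marker sum is highest.

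*Cp* (Entrez 12870, chr3:19956933-20009750) encodes ceruloplasmin, a copper oxidase that helps load exported iron onto transferrin. Its level was low at 0 hr, at 0.685, 0.785 and 0.718 FPKM in control microglia, and reached 3.12, 30.0, 2.13, 6.34 and 4.24 FPKM at 6 hr and 2.89, 4.15, 2.85 and 3.94 FPKM at 24 hr. All libraries after LPS were above those without, and a single 6 hr library had several times the level of the other 4. No control or WM library without LPS reached 1 FPKM. The gene thus met the filter of at least 1 FPKM in at least 3 libraries only through libraries after LPS, and without this filter its calls were the same. The rise passed the test at 6 hr (log2 fold change 1.99, SE 0.42, adjusted p = 5.29e-04) and at 24 hr (log2 fold change 1.35, SE 0.44, adjusted p = 0.031). Without that 6 hr library (replicate 2), the log2 fold change at 6 hr was 1.45 and still passed. The call at 24 hr was lost when any 1 of 5 libraries was left out (replicates 1, 2 and 3 of the 0 hr and replicates 2 and 4 of the 24 hr controls, adjusted p of 0.0635 to 0.0793). WM repopulating cells had 0.923, 0.951, 0.695 and 0.591 FPKM at 0 hr, 3.77, 4.54, 2.21 and 2.48 at 6 hr and 1.51, 1.34, 1.34 and 1.54 at 24 hr. These 3 groups did not overlap, and only the rise at 6 hr passed the test (log2 fold change 1.22, SE 0.41, adjusted p = 0.0214), which was lost without WM replicate 1 or 2 of 6 hr (adjusted p = 0.051 and 0.0669). The drop from 6 to 24 hr (log2 fold change -0.77, SE 0.41, adjusted p = 0.218) was called with only both groups in the fit (adjusted p = 0.0189).

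The 2 ferritin chains moved apart. *Fth1* (Entrez 14319, chr19:9980600-9985111) encodes the heavy chain, which oxidizes iron for storage, and *Ftl1* (Entrez 14325, chr7:45457944-45459886) the light chain, which helps form the iron core. *Fth1* had 3361, 3015 and 2819 FPKM in control microglia at 0 hr, 11474, 21019.6, 7201, 14482 and 11293 at 6 hr and 5925, 6778, 4524 and 5881 at 24 hr. The groups did not overlap, and *Fth1* ranked 1 to 3 among all genes of the libraries at 6 hr (log2 fold change 2.01, SE 0.24, adjusted p = 2.97e-07 at 6 hr; log2 fold change 0.90, SE 0.25, adjusted p = 0.0103 at 24 hr). In WM repopulating cells it was at 3954, 4679.8, 4336 and 4919 FPKM at 0 hr, 12916, 16824, 12006 and 9803 at 6 hr and 8395, 8811, 8681 and 7064 at 24 hr, again higher at 6 hr (log2 fold change 1.5, SE 0.23, adjusted p = 1.32e-05) and 24 hr (log2 fold change 0.88, SE 0.23, adjusted p = 0.00812). *Ftl1* was at 529, 465 and 398 FPKM at 0 hr and 427, 446, 419, 527 and 533 FPKM at 6 hr in control microglia, groups that overlap (difference 0.02, 95% interval -0.26 to 0.30, adjusted p = 0.918). At 24 hr it was at 623, 695, 568 and 622 FPKM, above all libraries of the earlier times (log2 fold change 0.44, SE 0.14, adjusted p = 0.0301 against 0 hr). This call did not hold without replicate 2 or 3 of the 0 hr or replicate 1 or 2 of the 24 hr controls (adjusted p of 0.0518 to 0.167), nor with only these groups in the fit (adjusted p = 0.0695). In WM repopulating cells, *Ftl1* had 529, 601, 529.5 and 553 FPKM at 0 hr, 606, 553, 510.1 and 496 at 6 hr and 724, 850.3, 815 and 566 at 24 hr. The rise at 24 hr against 0 hr (log2 fold change 0.40, SE 0.13, adjusted p = 0.0348) was not called with quantile normalization (adjusted p = 0.0811), nor when any 1 of 6 libraries was left out (replicates 1, 3 and 4 of 0 hr and replicates 1, 2 and 3 of 24 hr, adjusted p of 0.0621 to 0.115). The *Fth1* level divided by the *Ftl1* level, both per length, was 6.35 to 7.08 in control microglia at 0 hr, 17.2 to 47.1 at 6 hr and 7.97 to 9.76 at 24 hr, and 7.48 to 8.9, 19.8 to 30.4 and 10.4 to 12.5 in WM repopulating cells. Both mRNAs carry the hairpin in the 5′ UTR shown above. Ferritin genes have processed pseudogenes, and reads shared with these cannot be told apart here.

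*Slc40a1* (Entrez 53945, chr1:45908070-45926532) encodes ferroportin, the exporter of iron from cells, and was the gene that fell. Control microglia had 67.3, 84.7 and 73.1 FPKM at 0 hr, 9.86, 2.73, 7.66, 6.31 and 11 at 6 hr and 21.5, 19.8, 26.4 and 24.2 at 24 hr. The 3 times did not overlap, with the level lowest at 6 hr (log2 fold change -3.26, SE 0.27, adjusted p = 1.61e-09) and partly restored at 24 hr (log2 fold change 1.59, SE 0.25, adjusted p = 4.16e-05 against 6 hr, and -1.67 against 0 hr, adjusted p = 1.52e-04). WM repopulating cells had 39.1, 58.8, 64.8 and 55 FPKM at 0 hr, 7.02, 4.98, 7.02 and 9.06 at 6 hr and 11.3, 20.6, 14.4 and 13.3 at 24 hr. Their fall at 6 hr (log2 fold change -2.79, SE 0.26, adjusted p = 1.34e-08) and the remaining difference at 24 hr (log2 fold change -1.81, SE 0.26, adjusted p = 2.71e-05) both passed the test.

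*Tfrc* (Entrez 22042, chr16:32608896-32632794) encodes the transferrin receptor, through which cells take up iron. It was low at 0 hr, at 1.39, 1.0 and 1.14 FPKM in control microglia and 0.662, 0.709, 1.02 and 0.705 FPKM in WM repopulating cells. At 6 hr the values were 7.75, 4.72, 8.6, 6.5 and 6.18 FPKM and 10.1, 6.75, 4.75 and 7.7 FPKM, and at 24 hr 3.23, 3.4, 4.16 and 2.77 FPKM and 3.18, 2.67, 1.87 and 4.16 FPKM. In both kinds of cells the 3 times did not overlap, and the rises passed the test at 6 hr (log2 fold change 1.81, SE 0.21, adjusted p = 2.60e-07 in control; log2 fold change 2.20, SE 0.20, adjusted p = 1.21e-08 in WM) and at 24 hr (log2 fold changes 1.0 and 1.13, adjusted p = 0.00193 and 3.19e-04). *Tfrc*, whose hairpins lie in the 3′ UTR, rose with *Fth1* and against *Slc40a1*, which carry theirs in the 5′ UTR.

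*Hmox1* (Entrez 15368, chr8:75093618-75100593) encodes heme oxygenase 1, which breaks heme down to iron, biliverdin and carbon monoxide. Control microglia had 28.2, 38.6 and 39.6 FPKM at 0 hr, 276, 149, 169, 266 and 311 at 6 hr and 94.9, 84.3, 78.4 and 62.5 at 24 hr. The 3 times were apart (log2 fold change 2.65, SE 0.22, adjusted p = 1.78e-09 at 6 hr; log2 fold change 1.15, SE 0.23, adjusted p = 8.77e-04 at 24 hr). WM repopulating cells had 48.7, 61.5, 50.1 and 54 FPKM, 233, 326, 206 and 162 FPKM and 72.9, 67.9, 81.8 and 63 FPKM, which also do not overlap, and the test was passed at 6 hr (log2 fold change 2.05, SE 0.21, adjusted p = 6.43e-08) and not at 24 hr (log2 fold change 0.41, SE 0.21, adjusted p = 0.196), where it was passed with only both groups in the fit (adjusted p = 0.0287). *Slc11a1* (Entrez 18173, chr1:74375014-74386057), a transporter that moves divalent metals out of the phagosome of macrophages, passed the test at neither time after LPS. It had 90.9, 114 and 132 FPKM at 0 hr, 114, 125, 85.1, 129.9 and 93.4 at 6 hr and 121, 102, 102 and 52.2 at 24 hr in control microglia, with overlapping ranges. Its differences from 0 hr were -0.04 (95% interval -0.46 to 0.38) at 6 hr and -0.30 (95% interval -0.74 to 0.14) at 24 hr in control, and -0.25 (95% interval -0.65 to 0.16) and -0.40 (95% interval -0.80 to 0.00) in WM repopulating cells. The WM libraries, with 163, 175, 185 and 186 FPKM at 0 hr, 135, 161, 161 and 141 at 6 hr and 147, 151, 139.9 and 103 at 24 hr, were all lower after LPS than without, and the 24 hr difference was called with only both groups in the fit (adjusted p = 0.0421).

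**Figure D3:**
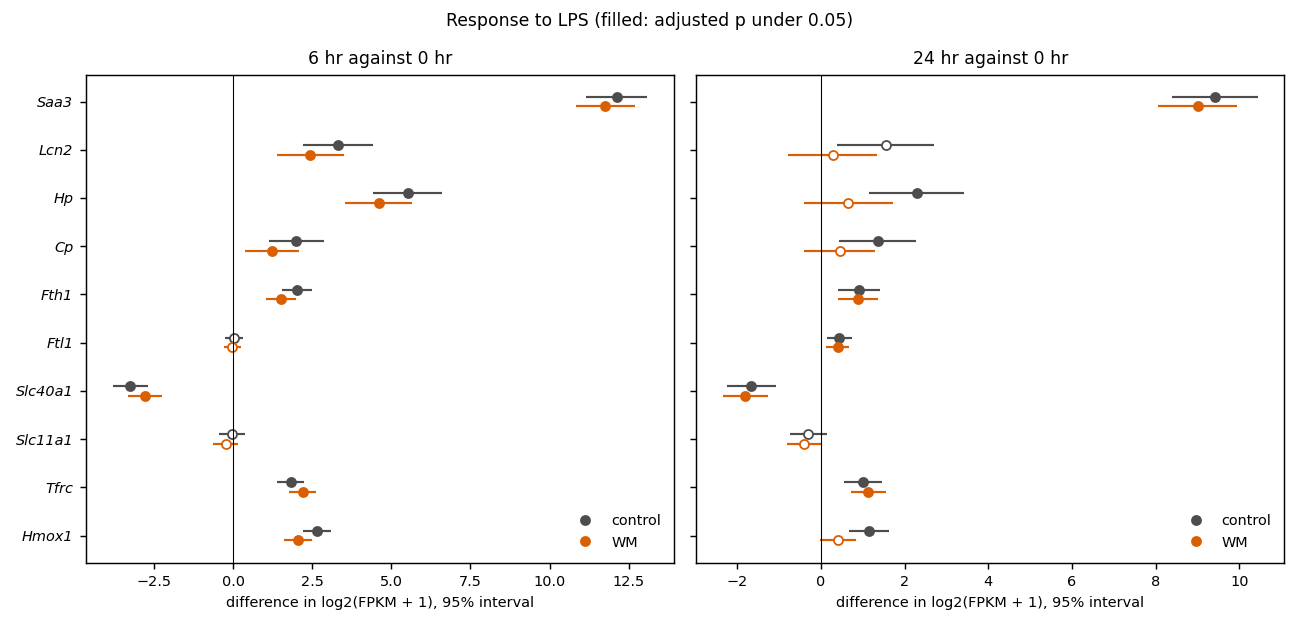
Difference in log2(FPKM + 1) from 0 hr (horizontal axis, point and 95% interval) of each gene at 6 hr (left) and 24 hr (right) after LPS, in gray for control microglia and orange for WM repopulating cells, with filled points where the adjusted p was under 0.05. *Slc40a1* lies below 0 at both times and *Saa3* lies highest.

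At 24 hr against 0 hr, 8 of the 10 genes were called in control microglia (21.3% of all genes), which fell to 5 without the 0 hr control library of replicate 2, and 5 of the 10 in WM repopulating cells (18.8%). Between 6 and 24 hr, 8 were called in control microglia (28.3%), with *Ftl1* and *Slc40a1* higher and 6 lower at 24 hr, and 7 in WM repopulating cells (15.7%), where *Fth1* missed the threshold (log2 fold change -0.62, SE 0.23, adjusted p = 0.065) but passed without WM replicate 4 of 6 hr (adjusted p = 0.0418) and with only both groups in the fit (0.0459). Of these 7 calls, that of *Ftl1* was lost when any 1 of 6 libraries was left out (WM replicates 1, 2 and 3 of 24 hr and replicates 2, 3 and 4 of 6 hr), with quantile normalization (adjusted p = 0.0878) and with only both groups in the fit (adjusted p = 0.0557), and that of *Slc40a1* without WM replicate 2 of 6 hr (adjusted p = 0.0512). In control microglia, the *Ftl1* call was lost without replicate 2 of 24 hr (adjusted p = 0.0541). These counts do not show that the origins differ, which was tested on its own. The WM minus control difference of the LPS responses passed the test for 0 of the 10 genes at 6 hr (0.0237% of all genes called) and 0 at 24 hr (0.0867%). At an unadjusted p under 0.05, 913 and 1105 of the 12684 genes would be counted in these limma tests. The intervals leave room for sizeable differences: for *Hp*, the WM minus control difference of the 24 hr responses was -1.63 (95% interval -3.19 to -0.08), for *Lcn2* -1.27 (95% interval -2.84 to 0.31), for *Hmox1* -0.74 (95% interval -1.39 to -0.09) and for *Saa3* -0.41 (95% interval -1.80 to 0.98). The neutrophil marker sums at 24 hr were 6522 to 15535 FPKM in control and 3228 to 7306 FPKM in WM libraries, and the *Hp* and *Lcn2* ratios to them, given above, overlapped between the origins at 24 hr. The part of neutrophils in these differences was not tested. At 6 hr the WM minus control difference of the responses was -0.59 (95% interval -1.23 to 0.04) for *Hmox1*, -0.51 (95% interval -1.18 to 0.17) for *Fth1* and 0.47 (95% interval -0.30 to 1.24) for *Slc40a1*.

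Compared at the same time, WM repopulating cells and control microglia differed in 0 of the 10 genes at 0 hr (1.21% of all genes called, 1514 genes at an unadjusted p under 0.05), at 6 hr (0.323% and 1164 genes) and at 24 hr (3.97% and 2238 genes). *Slc11a1* had the lowest p of the 10 genes at each time, and its WM libraries were all above the control libraries at 0 and 6 hr but not at 24 hr. Its WM minus control differences were 0.67 (95% interval 0.23 to 1.10) at 0 hr, 0.46 (95% interval 0.08 to 0.84) at 6 hr and 0.57 (95% interval 0.16 to 0.97) at 24 hr (adjusted p = 0.144, 0.415 and 0.106). *Fth1*, *Hmox1* and *Slc40a1* also did not overlap at 0 hr, with differences of 0.54 (95% interval 0.04 to 1.05), 0.59 (95% interval 0.11 to 1.07) and -0.47 (95% interval -1.05 to 0.11). How many of all genes lie apart in this way, at this or the other times, was not counted. The separations are therefore not read as a result about these genes. The border-associated macrophage and choroid plexus marker sums given above were also apart between the origins, the former at 24 hr and the latter at 0 and 24 hr. At 0 hr, the 8 astrocyte markers summed to 57.8 to 62.9 FPKM in control and 38.4 to 52.9 in WM libraries, and the 5 oligodendrocyte markers listed (of 6) to 31.7 to 39.5 and 28.4 to 31.3 FPKM, also apart. The part of these cells was not tested. At 24 hr, *Cp* and *Fth1* did not overlap, with differences of -0.86 (95% interval -1.71 to -0.01) and 0.52 (95% interval 0.05 to 0.99). In a fit restricted to both groups of a comparison, *Fth1* and *Slc11a1* were called at 0 hr (adjusted p = 0.0317 and 0.0282) and *Cp* at 24 hr (adjusted p = 0.0292).

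**Figure D4:**
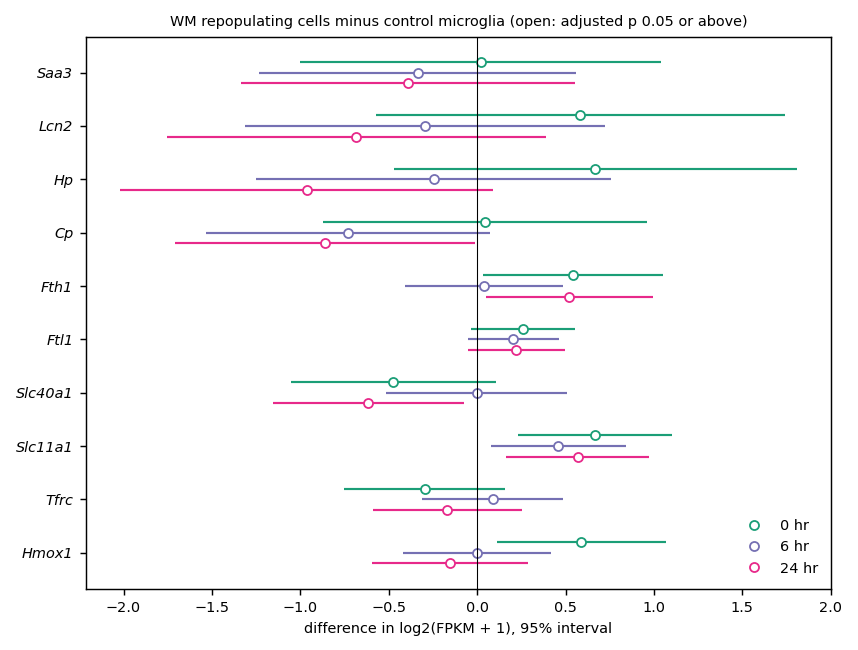
Difference in log2(FPKM + 1) between WM repopulating cells and control microglia (horizontal axis, point and 95% interval) of each gene at 0 hr (green), 6 hr (purple) and 24 hr (pink) after LPS. All points are open, since none had an adjusted p under 0.05, and the 3 points of *Slc11a1* lie between 0.46 and 0.67.

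Other genes of the same processes were counted from lists. Of 27 tested acute phase genes, 20 rose and 1 fell in control microglia at 6 hr (2714 of all genes rose and 2676 fell), with a median log2 fold change of 1.60 against 0.01 over all genes. Those with the largest changes were *Il1rn* (log2 fold change 7.45, SE 0.53, adjusted p = 2.10e-10), which encodes the antagonist of the interleukin 1 receptor, *Cfb* (log2 fold change 6.61, SE 0.44, adjusted p = 8.22e-11), complement factor B, and *Il1b* (log2 fold change 4.95, SE 0.62, adjusted p = 7.74e-07), interleukin 1 beta. Of 25 tested iron handling genes, 6 rose and 7 fell (median 0.09), led by *Slc39a14* (log2 fold change 3.14, SE 0.32, adjusted p = 4.40e-08), an importer of zinc and non-transferrin iron, *Mcoln1* (log2 fold change -1.58, SE 0.22, adjusted p = 2.90e-06), a channel of the lysosome, and *Slc11a2* (log2 fold change 1.51, SE 0.43, adjusted p = 0.00622), the divalent metal transporter 1. Of 20 tested heme and Nrf2 genes, 7 rose and 3 fell (median 0.24), led by *Spic* (log2 fold change 4.45, SE 0.42, adjusted p = 1.13e-08), a factor of iron-recycling macrophages, *Slc7a11* (log2 fold change 2.74, SE 0.64, adjusted p = 0.00135), the cystine transporter, and *Slc46a1* (log2 fold change -2.58, SE 0.29, adjusted p = 2.09e-07), a transporter of heme and folate. In WM repopulating cells at 6 hr, the same lists had 16 higher and 2 lower, 5 higher and 6 lower, and 6 higher and 2 lower (2446 of all genes rose and 2475 fell).

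At 24 hr in control microglia (1537 of all genes higher and 1171 lower), the acute phase list had 6 higher and 2 lower, with a median of 0.26, led by *Cfb* (log2 fold change 4.23, adjusted p = 7.86e-07), *Il1b* (4.22, adjusted p = 5.20e-05) and *Lrg1* (3.41, adjusted p = 1.32e-04), a secreted glycoprotein of the acute phase. The iron handling list had 3 higher and 2 lower, led by *Slc39a14* (log2 fold change 2.11, adjusted p = 8.37e-05), *Steap3* (1.03, adjusted p = 0.0155), an iron reductase, and *Fech* (-0.78, adjusted p = 0.00105), the last enzyme of heme synthesis. Its count of 5 fell to 2 or 3 when any 1 of the 3 libraries of 0 hr was left out. The heme and Nrf2 list had 3 higher and 0 lower: *Spic* (log2 fold change 3.07, adjusted p = 2.14e-05), *Maff* (0.94, adjusted p = 0.0338) and the peroxiredoxin gene *Prdx1* (0.59, adjusted p = 0.00808). In WM against control libraries at 24 hr (213 of all genes higher and 290 lower), 3 acute phase genes were higher in WM, namely *Orm3* (3.94 ± 1.78 against 1.18 ± 0.578 FPKM, adjusted p = 0.0471), *Nfkbiz* (165 ± 11.4 against 74.2 ± 3.69 FPKM, adjusted p = 0.0057) and *Cebpb* (432 ± 131 against 228 ± 123 FPKM, adjusted p = 0.0421), each n = 4. When any 1 of 4 libraries was left out (replicate 1 of control and replicates 2, 3 and 4 of WM), 1 acute phase gene was called. *Nfkbiz* and *Cebpb* encode factors that take part in the transcription of acute phase genes. Of the heme and Nrf2 list, *Mafg* was higher (79.8 ± 10.8 against 45 ± 8.24 FPKM, adjusted p = 0.00419), and of the iron handling list 0 genes passed the test. At 0 hr, *Cebpb* was the 1 gene of these lists that differed (log2 fold change 1.80, adjusted p = 0.00459), and at 6 hr *Saa2* (-1.31, adjusted p = 0.0269). These 2 were named after their values were seen, and the *Saa2* call was lost without replicate 1, 2 or 4 of the control or replicate 1 or 4 of the WM libraries.

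Since C/EBP factors bind promoters of acute phase genes, the 250 bases before the start sites of the members were searched on both strands for the letters TTGCNNAA, or their reverse complement where they lie on the other strand, which are part of the sequence that these factors prefer. RefSeq start sites (GRCm38.p6) were given for 7 of the 10 genes, in 10 windows, and *Saa3*, *Lcn2*, *Cp* and *Fth1* held a match in at least 1 window. Over all genes, 9.56% of 32851 windows held a match. That share is per window and not per gene, so it cannot be set directly against this count of genes. The stretches are given because these 4 genes hold the match, which was not found in the windows of *Tfrc*, also higher at 6 hr, *Ftl1* and *Slc11a1*. *Hp*, *Hmox1* and *Slc40a1* were not searched. Each is printed with the match in capitals and read 5′ to 3′ on the strand of the gene.
Saa3: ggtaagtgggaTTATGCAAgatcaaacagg
Lcn2: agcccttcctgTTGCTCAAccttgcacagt
Cp: attagttactcTTTTGCAAcattaaattgt
Fth1, the match nearer the start site: gccctgcgggtTTGGGCAAcacgcccacag
They lie at chr7:46715757-46715786 (minus strand), chr2:32387937-32387966 (minus), chr3:19957168-19957197 (plus) and chr19:9982577-9982606 (plus). The matches of *Saa3*, *Lcn2*, *Cp* and *Fth1* begin 99, 216, 70 and 58 bases before the start site. A match of letters is no evidence of binding. For nuclear factor kappa B, 1 fixed pattern of letters was searched and found in 0 of these 10 windows, against 1.41% of all windows. The letters TGACNNNGC, part of the antioxidant response element that Nrf2 binds, were also found in 0 of them, against 10.2% of all windows. Other forms of either site were not searched. With 10 windows and shares this low, a count of 0 does not show that these promoters lack such sites.

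In SVZ tissue, *Slc11a1* was the gene of the group that passed the test. Control mice had 1.03, 1.42, 1.45, 1.5 and 1.96 FPKM (22 to 43 reads), mice at the end of 14 days of PLX3397 0, 0, 0.169, 0.0908 and 0.0788 FPKM (0 to 4 reads), and mice 5 days into recovery 0.323, 0.421, 0.349, 0.269 and 0.385 FPKM (6 to 16 reads). The 3 groups did not overlap. Only control libraries reached 1 FPKM, so the gene met the filter of at least 1 FPKM in at least 3 libraries through that group alone. Without this filter the calls against control were the same. *Slc11a1* was lower than in control with PLX3397 (log2 fold change -1.20, SE 0.10, adjusted p = 5.68e-07) and in recovery (log2 fold change -0.86, SE 0.10, adjusted p = 4.70e-05), whereas recovery against PLX3397 missed the threshold (log2 fold change 0.34, SE 0.10, adjusted p = 0.173) and was called with a pseudocount of 0.1 (adjusted p = 0.0357). The 10 microglial markers summed to 203 to 270.0 FPKM in control, 13.3 to 17.5 with PLX3397 and 21.4 to 30.2 in recovery. The 5 border-associated macrophage markers listed (of 9) summed to 3.9 to 7.72, 1.21 to 2.49 and 1.38 to 3.14 FPKM, with control above both other groups. The part of these cells in the *Slc11a1* values was not tested. Of the 9 genes tested, 1 was called against control with PLX3397 (1.26% of 14151 genes), 1 in recovery (1.27%) and 0 between recovery and PLX3397 (0.325%, with 2338 genes at an unadjusted p under 0.05 in limma).

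*Slc40a1* had 4.34, 4.14, 4.64, 3.52 and 4.66 FPKM in control SVZ, 2.27, 2.87, 2.82, 3.0 and 3.17 with PLX3397 and 3.9, 1.98, 2.31, 3.46 and 3.37 in recovery. The PLX3397 mice lay below all control mice, but the difference did not pass (difference -0.46, 95% interval -0.74 to -0.18, adjusted p = 0.18), and recovery overlapped with both (difference -0.41, 95% interval -0.69 to -0.14, adjusted p = 0.166 against control). With only the 2 groups in the fit, the PLX3397 difference was called (adjusted p = 0.0361). *Lcn2* was at 0.253, 0, 0, 0.607 and 1.85 FPKM in control, 0, 0.111, 0.228, 0 and 0 with PLX3397 and 0.218, 13.7, 8.48, 0.606 and 0.297 in recovery. Mice 2 and 3 of the recovery group, with 192 and 63 reads, stood above all other SVZ libraries, which had 0 to 15 reads, and the group difference did not pass (difference 1.19, 95% interval -0.05 to 2.42, adjusted p = 0.318). Only 3 of 14 neutrophil markers are listed in the SVZ table, and their sum was 2.3, 10.5, 15.6, 2.7 and 9.62 FPKM in the 5 recovery mice against 0.906 to 3.72 in control, so that it was also highest in mice 2 and 3, with mouse 5 near them. The 4 erythrocyte markers listed (of 6) summed to 91.3 to 336 FPKM in recovery against 32.4 to 79.3 in control. The part of these cells in the *Lcn2* values was not tested. Of the lists, 3 of 13 acute phase genes were called with PLX3397 (1.26% of all genes), namely *C4b*, a complement component (log2 fold change 1.33, SE 0.21, adjusted p = 0.00139), *Cd14*, the LPS co-receptor (log2 fold change -1.78, SE 0.22, adjusted p = 8.47e-05), and *Il6ra* (log2 fold change -0.90, SE 0.15, adjusted p = 0.0023), all named after their values were seen. *Cd14* and *Il6ra* were also lower in recovery (adjusted p = 0.00644 and 0.0023), and 0 of 27 iron handling and 0 of 18 heme and Nrf2 genes were called in the SVZ. Of the 10 microglial markers, whose sums are given above, 9 were called lower with PLX3397 and 9 in recovery, and of the 8 astrocyte markers 1 was called higher with PLX3397 and 1 in recovery, with sums of 1256 to 1713 FPKM in control, 1612 to 1797 with PLX3397 and 1741 to 2691 in recovery. The part of these cells in the *C4b*, *Cd14* and *Il6ra* values was not tested.

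*Fth1* was the member with the highest level in SVZ tissue, at 4401 ± 340.5 FPKM in control, 4852 ± 679 with PLX3397 and 5070.1 ± 1186 in recovery (SD, n = 5 each). *Ftl1* had 89.4 ± 9.07, 84.9 ± 7.33 and 97.5 ± 24.2 FPKM, *Tfrc* 6.94 ± 0.467, 8.31 ± 1.69 and 7.35 ± 0.868 FPKM, and *Hmox1* 3.49 ± 1.12, 3.01 ± 0.545 and 3.33 ± 0.339 FPKM. These ranges overlapped between all groups. *Hp* (0.312 to 0.992 FPKM in control, 4 to 16 reads) and *Cp* (1.52 to 2.81 FPKM in control) were low and also overlapped. The interval of the PLX3397 difference was -0.17 to 0.44 for *Fth1* and -0.03 to 0.46 for *Tfrc*. The control mouse with the highest *Cp*, 2.81 FPKM, had a summed level of choroid plexus markers of 21648 FPKM against 14.5 to 129 FPKM in the other 14 SVZ libraries, whose part in that value was not tested.

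**Figure D5:**
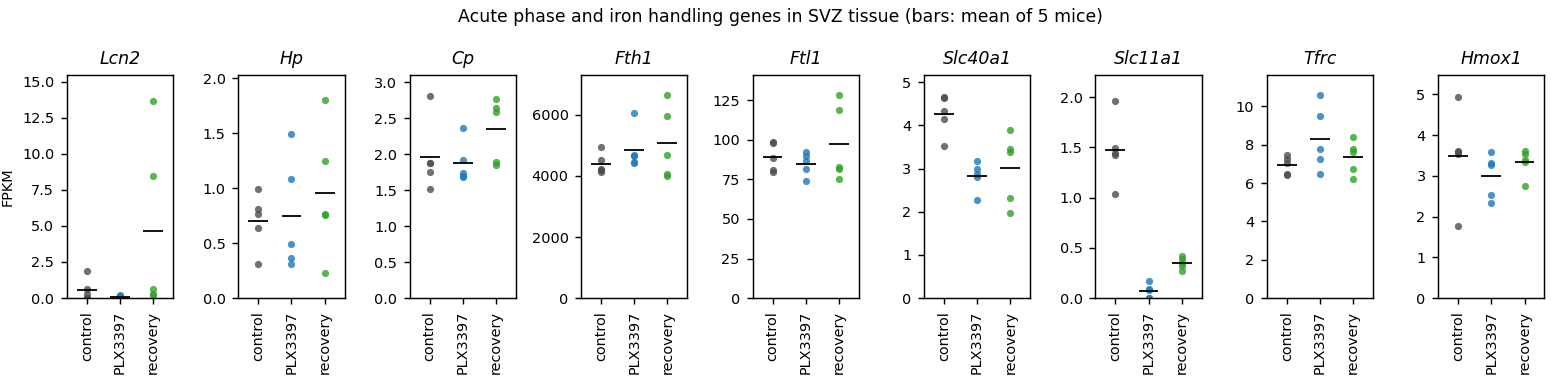
FPKM of the 9 genes listed for SVZ tissue (vertical axes, each starting at 0) in control mice (gray), at 14 days of PLX3397 (blue) and at 5 days of recovery (green), with a point per mouse and a bar at the mean of 5 mice. *Slc11a1* is separate in the 3 groups, and *Lcn2* is raised in 2 recovery mice.

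In the GLOBAL experiment, 0 of the 9 genes were called between GLOBAL repopulating cells and control (0% of 16651 genes, with 1504 genes at an unadjusted p under 0.05 in limma). *Hmox1* had 49.9, 48.7 and 56.5 FPKM in GLOBAL repopulating cells and 23.9, 34.2, 36.2 and 33.1 FPKM in control, without overlap (difference 0.69, 95% interval 0.34 to 1.05, adjusted p = 0.275). *Fth1* had 1929, 2055 and 2343 against 1608, 1497, 1239 and 1378 FPKM (difference 0.56, 95% interval 0.21 to 0.92, adjusted p = 0.352), and *Slc11a1* 189.8, 178 and 181 against 119.7, 135, 122 and 160.5 FPKM (difference 0.45, 95% interval 0.15 to 0.75, adjusted p = 0.382). For these genes every GLOBAL library lay above every control library. The share of all genes that lie apart in this way was not computed, so the separation cannot be read as a trait of these genes. None of these differences passed the test. The border-associated macrophage markers summed to 25.5 to 37.9 FPKM in GLOBAL and 39 to 60.9 in control libraries, and the astrocyte markers to 25.9 to 30.8 and 32.4 to 35.7 FPKM, both without overlap, while the microglial sums overlapped (14904 to 15163 and 13121 to 16016 FPKM). The part of these cells in the *Hmox1*, *Fth1* and *Slc11a1* values was not tested. *Lcn2* had 260.1, 138 and 55.2 FPKM in GLOBAL and 1264, 689.7, 135 and 163 FPKM in control libraries, and *Hp* 36.5, 24.1 and 7.43 and 159, 98.7, 31.4 and 19 FPKM, with overlap (difference -1.56, 95% interval -3.20 to 0.08, adjusted p = 0.565; difference -1.51, 95% interval -3.02 to 0.00, adjusted p = 0.552). The 13 neutrophil markers listed there summed to 4732, 2840.4 and 1309.8 FPKM in the GLOBAL and 23567, 14259, 2596 and 2208 FPKM in the control libraries, in nearly the same order as *Lcn2*, and their part in its level was not tested. *Ftl1*, *Slc40a1*, *Tfrc* and *Cp* overlapped, with differences of 0.28 (95% interval -0.13 to 0.69), -0.01 (95% interval -0.37 to 0.35), 0.05 (95% interval -0.49 to 0.59) and -0.40 (95% interval -0.92 to 0.13).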

How the data were processed

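RNA-seq of 46 libraries was deposited in 3 tables of FPKM per gene, which the authors made from reads with STAR, featureCounts, edgeR and limma on mm10, as listed without versions in the submitters' processing notes. The study's methods describe Smart-seq2 libraries and call the unit RPKM, whereas the labels describe another library protocol, so the kit of these libraries is uncertain. Each table was normalized on its own, and tests were made within a table only. Relative depth and reads of low genes were read from the steps between low FPKM values, since the methods state only 1 approximate depth for all libraries. These values bear counting error beside the spread between libraries.

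Groups were taken from the labels. Genes with at least 1 FPKM in at least 3 libraries were fitted as log2(FPKM + 1) with limma 3.58.1 in R 4.3.3 (lmFit, eBayes with trend), with all groups of a table in 1 fit, Benjamini-Hochberg adjustment over all tested genes, 2-sided, and a call at an adjusted p under 0.05. 0 columns of the tables were left out, and 0 pairs of libraries held identical values. The script was tested on simulated data. Alternatives were a pseudocount of 0.1, no filter on low values, no variance trend, quantile normalization, only the groups compared in the fit, a replicate block and each library left out in turn.

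The 10 genes were described throughout, and from the acute phase, iron handling, and heme and Nrf2 lists the 3 called genes with the largest log2 fold change were named for the 6 and 24 hr responses of control microglia and for WM against control at 24 hr. The members and lists were chosen with earlier results of these data known. Gene positions and promoters came from RefSeq (GRCm38.p6) and transcripts from GENCODE M21 (GRCm38), with coordinates counted from 1.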

Additional observations from a re-analysis of the deposited data

Results flagged for a closer look

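In 5 of 86 sets of 1 gene in 1 group of 4 or 5 libraries, the highest library stood apart by Dixon's criterion, which chance alone would meet in about 5% of sets. *Cp* in replicate 2 of control microglia at 6 hr was at 30.0 FPKM, with the next library at 6.34 FPKM. *Lcn2* in replicate 3 of WM repopulating cells at 0 hr was at 136 FPKM, with the others at 47.5 to 58.3 FPKM, and this library also had the highest neutrophil marker sum of its group (11251 FPKM). *Tfrc* in the same library was at 1.02 FPKM, against 0.709 FPKM in the next. *Cp* in replicate 1 of the control SVZ was at 2.81 FPKM, with the next at 1.87 FPKM, in the mouse with the high choroid plexus marker sum. *Fth1* in replicate 4 of the SVZ with PLX3397 was at 6048 FPKM, with the next at 4688 FPKM, and its oligodendrocyte marker sum was 5097 FPKM, against 2766 to 3617 FPKM in the other 4 libraries of its group. The cause was not tested for any of these.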

How the results depend on the processing

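Of 2218 re-computed log2 fold changes of the 10 genes, 2172 kept their direction and their side of the threshold, 16 passed it only under the alternative, 30 passed it only in the reported fit, and 0 reversed. With only the groups compared in the fit, 2 of the genes (*Fth1* and *Slc11a1*) were called between WM and control at 0 hr, 1 (*Cp*) at 24 hr, and 2 (*Slc40a1* and *Slc11a1*) in the SVZ with PLX3397 against control. A pseudocount of 0.1 gave 1 call (*Slc11a1*) between SVZ recovery and PLX3397. The cause was not tested. Leaving out each library in turn gave 5 to 8 calls at 24 hr against 0 hr in control microglia, 7 to 8 at 24 hr against 6 hr, and in WM repopulating cells 7 to 8 at 6 hr, 4 to 5 at 24 hr and 5 to 7 at 24 hr against 6 hr, and changed no count of called members in the other 10 comparisons. Same-numbered libraries did not consistently deviate together: over 13 comparisons the correlations of their deviations ran from -0.155 to 0.486. In 0 comparisons were all above 0.1, so the numbers were not taken to pair animals. In GLOBAL against control they ran from 0.0562 to 0.137, and 2 of 3 libraries matched best with their own number. This does not settle whether the libraries of that experiment were paired. A replicate block gave 2 calls between GLOBAL and control, *Lcn2* (log2 fold change -1.96, adjusted p = 0.0175) and *Hp* (-2.01, adjusted p = 0.00217), and called *Lcn2* at 24 hr against 0 hr in control microglia (1.69, adjusted p = 0.0469). It changed no other call of the 10 genes. Groups of 3 to 5 libraries and values of few reads, as of *Saa3* at 0 hr and of *Lcn2*, *Hp* and *Slc11a1* in the SVZ, limit the precision.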
